A study of Mus musculus with 6 samples.

Results

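Aminoacyl-tRNA synthetases are the enzymes that attach each amino acid to its transfer RNA, the step that supplies the ribosome with charged tRNAs. One set works in the cytosol and another, also encoded in the nucleus and imported, works in mitochondria, where it serves the few proteins that mitochondrial DNA encodes. The kinase complex mTORC1, which rapamycin inhibits, promotes protein synthesis and raises output of the transcription factor ATF4, whose targets in many cell types include amino acid synthesis enzymes, amino acid transporters and many of the cytosolic synthetases. In resting naive T cells protein synthesis is low, and it is raised strongly after antigen stimulation.

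The 36 genes described here are 20 cytosolic and 16 mitochondrial synthetases, taken by name from the 55487 genes of the deposited tables, where a trailing 2 in the symbol marks the mitochondrial enzymes. All 36 had counts in every library and passed the filter on low counts, as did 11950 genes in all. The RNA was poly(A) RNA of spleen naive CD4+ T cells from C57BL6/J mice, wild type (WT) in both groups. One group of 3 libraries came from mice with no treatment and the other group of 3 from mice given rapamycin in vivo, and the comparison asks how mTOR inhibition alters these cells. Dose, duration, age and sex are not given in the sources used here. The labels do not say that each library came from a separate mouse, so the p-values reflect variation among libraries that may be only technical. In bulk RNA, fewer cells of a type and less RNA per cell cannot be told apart.

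Promoter sequences are shown for 4 of the members in which the ATF4 binding element, or for Gars only a looser form of it, was found. One is also shown for Lars2, the member with the largest change. The C/EBP-ATF response element has the core TGATGCAA and was searched on both strands, in windows from 250 bases before to 50 bases after the RefSeq start site (GRCm38.p6). Of the 36 members, 27 had a window, 13 cytosolic and 14 mitochondrial. The others were Cars, Hars, Lars, Nars, Rars, Vars, Wars, Hars2 and Pars2. The core was found in 4 of the 13 cytosolic windows and in 0 of the 14 mitochondrial ones, against 1.03% of the windows of 27025 genes. Those 4 members were Aars, Iars, Tars and Yars, which charge tRNAs with alanine, isoleucine, threonine and tyrosine. The looser core TGATGNAA, which includes every match to the first, added the glycyl-tRNA synthetase gene Gars and was found in 4.51% of all windows. Each line gives the strand of the gene read 5′ to 3′, with the match in capitals (TTGCATCA and TTTCATCA are matches on the opposite strand).
Iars, chr13:49682126-49682155, plus strand: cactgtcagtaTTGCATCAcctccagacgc
Tars, chr15:11399655-11399684, minus strand: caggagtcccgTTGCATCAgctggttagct
Yars, chr4:129189895-129189924, plus strand: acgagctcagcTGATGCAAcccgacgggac
Gars, chr6:55037960-55037989, plus strand: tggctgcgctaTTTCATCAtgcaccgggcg
Lars2, chr9:123366867-123366926, plus strand, the 60 bases before the start site, which hold neither core: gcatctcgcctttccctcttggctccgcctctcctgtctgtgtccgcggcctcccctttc

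Counted from the start site, the matches shown began at −30 in Gars, −15 in Tars, 4 in Yars and 8 in Iars. The match in Yars overlaps an annotated start codon, whose first base is at 129189908. A match describes letters in a window, and binding was not measured.

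With rapamycin, 17 of the 20 cytosolic enzymes fell and 0 rose, at an adjusted p under 0.05 by the quasi-likelihood test of edgeR, with p-values adjusted over all genes by the Benjamini-Hochberg method. Of all genes tested, 47.4% were called in either direction by this rule, 23.3% lower and 24.1% higher. The median log2 fold change (rapamycin over untreated) of the cytosolic enzymes was −0.29, beside −0.01 for all genes tested, and the 20 values ran from −0.87 to −0.05. Of the 16 mitochondrial enzymes 7 fell, 1 rose (Mars2, lower once a trend with gene length was removed) and 8 were not called. Their median was −0.12, or −0.04 without Lars2. The largest change among the 36 was the fall of that mitochondrial gene, by 3.16-fold. The difference between the compartments' medians was −0.17 and has no test of its own. With limma on log2(TPM + 1), 8 cytosolic and 2 mitochondrial enzymes were lower, against 1158 lower and 2713 higher of all genes. The mitochondrial count of 7 was 3 without rapamycin library 2 or untreated library 1, 4 without rapamycin library 3 or untreated library 3, and 3 with DESeq2.

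The libraries held 9712671 to 11393317 expected counts in the untreated group and 8757280 to 9315370 in the rapamycin group. Levels are given as CPM, counts relative to the library total, scaled by TMM factors, to compare a gene between groups, and as TPM, which is also scaled for transcript length, to compare genes. Across all genes the fold changes followed gene length, so values corrected for length, a step added once that trend was seen, are given for synthetases called from the counts where they end the call or move the value by over 1.5 times. With it, 18.2% of genes were lower and 20.2% higher. Without it the shares were 23.3% and 24.1%, to be read beside the marker counts that follow. The naive CD4 T cell markers were strongly detected, with Cd4 itself at 716 and 687 CPM on average in untreated and rapamycin libraries. Markers of other cells moved between the groups. Summed CPM of the 7 myeloid markers was 44.3 to 50.2 in untreated and 14.1 to 15.6 in rapamycin libraries, with 6 of 7 lower. The 5 plasma cell markers summed to 859 to 878 and 553 to 576, all lower, a sum carried by Ighm (794 and 530 CPM on average), which B cells also express. Jchain went from 11.6 to 0.788 CPM and Ighg2b from 17.8 to 0.381 CPM. The 6 memory or regulatory T cell markers summed to 40.1 to 44.9 and 21.7 to 23.7, with 1 lower (Cd44) and 1 higher (Ctla4). Both CD8 T cell markers rose, from a sum of 19.1 to 20.4 to one of 88.0 to 91.0, and 2 of 5 B cell markers fell (1 with the length correction), with sums of 442 to 472 and 424 to 447. Of 5 NK cell markers 2 fell and 1 rose, with sums of 55.2 to 58.7 and 48.4 to 53.4, most of it Prf1 (40.7 and 41.2 CPM), while Gzma went from 7.79 to 2.18 CPM and Klrb1c from 2.35 to 0.751. Erythroid and platelet markers summed to at most 8.32 CPM. Among 8 naive CD4 T cell markers 3 were lower and 4 higher. No marker of the myeloid, plasma cell, memory or regulatory, CD8 or B cell lists was at 0 in both groups, and the part of these cells in the results on synthetases was not tested.

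**Figure D1:**
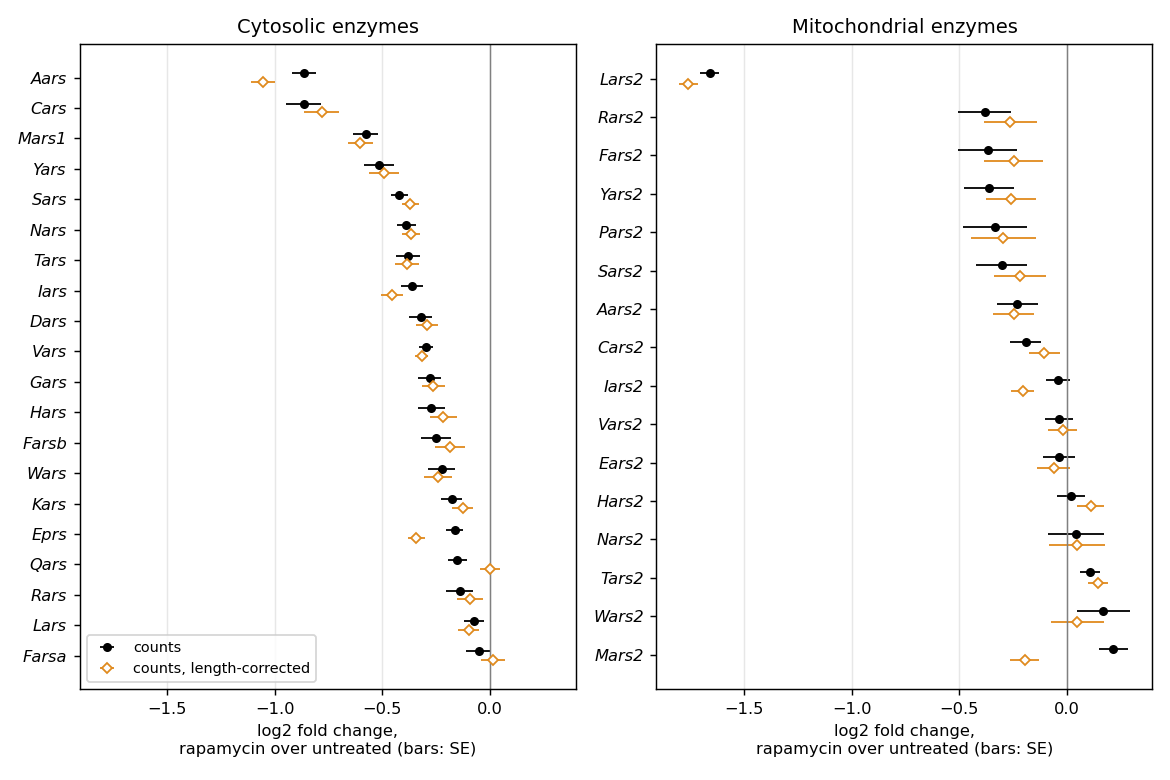
Log2 fold change of each gene, rapamycin over untreated, from the counts (black circles) and with the length correction (open orange diamonds), with bars for the standard error over 3 libraries a group. Every cytosolic value from the counts lies left of 0, with Qars and Farsa near 0 after the correction, while the mitochondrial values lie on both sides, with Lars2 alone at −1.66.

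Aars, the alanyl-tRNA synthetase gene (ENSMUSG00000031960, GENCODE vM21 on GRCm38, chromosome 8, 111033144 to 111057664, plus strand), had 91.4, 97.4 and 103 CPM in the untreated libraries and 49.8, 55.5 and 54.8 in the rapamycin libraries. The groups lay far apart without overlap. Its log2 fold change was −0.87 ± 0.06 (SE; adjusted p = 1.9e-20, edgeR), a fall of 1.82-fold. Aars was also the cytosolic synthetase with the lowest untreated level per length, at 26.8 ± 2.19 TPM (SD, n = 3), and it went to 16.2 ± 2.36. Aars shares 1326 exonic bases on the same strand with Exosc6, a subunit gene of the RNA exosome, and its estimated counts were whole in 0 of 6 libraries. Exosc6 had a mean of 14.1 CPM in untreated and 16.5 in rapamycin libraries and was not called.

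Cars, which encodes the cysteinyl-tRNA synthetase (ENSMUSG00000010755, chromosome 7, 143557230 to 143600090, minus strand), changed as much. Its untreated libraries had 51.7, 45.7 and 47.3 CPM and its rapamycin libraries 23.5, 30.3 and 25.7. The highest rapamycin library was well under the lowest untreated one. The change was −0.86 ± 0.08 (adjusted p = 4.5e-14, edgeR). In the ranking of all tested genes from the lowest fold change, Aars and Cars stood at 311 and 312.

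Mars1, the methionyl-tRNA synthetase gene that also charges initiator tRNA (ENSMUSG00000040354, listed as Mars in GENCODE vM21, chromosome 10, 127296221 to 127311786, minus strand), fell by 0.58 ± 0.06 on the log2 scale (adjusted p = 1e-12, edgeR). It had 81.8, 78.0 and 72.0 CPM in untreated libraries and 50.3, 53.2 and 52.1 in rapamycin libraries. The rapamycin libraries lay close together and below every untreated one. Yars, for tyrosine, had 55.4, 53.8 and 53.9 CPM and then 36.9, 41.4 and 35.8, again without overlap. Its change was −0.52 ± 0.07 (adjusted p = 3.7e-09, edgeR).

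**Figure D2:**
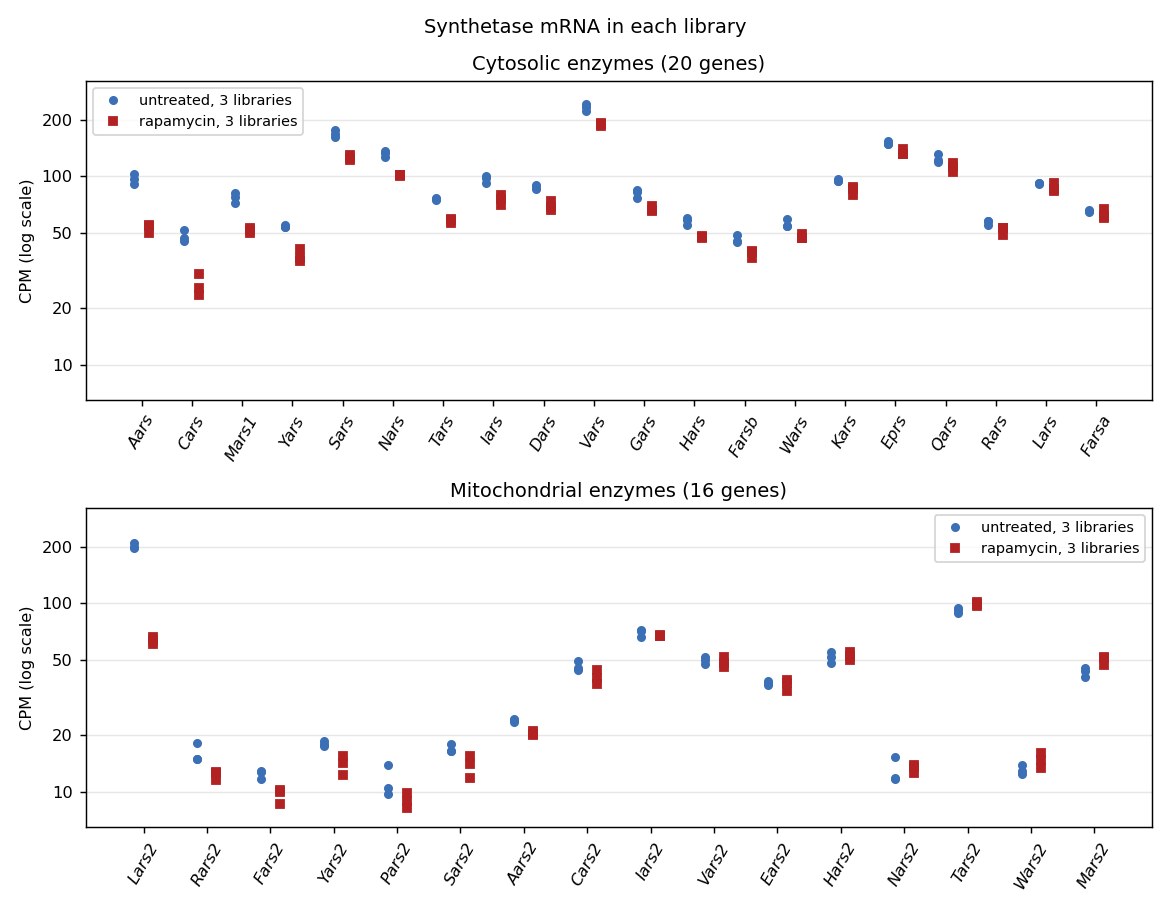
CPM on a log axis of the 20 cytosolic (top) and 16 mitochondrial genes (bottom), in order of fold change, each point being 1 library of the untreated (blue circles) or rapamycin (red squares) group of 3. The rapamycin libraries lie below the untreated ones in 18 cytosolic and 6 mitochondrial genes, as in 26.8% of all genes tested, and above them in Tars2 and Mars2.

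A further group of cytosolic genes fell by between 0.30 and 0.42 on the log2 scale. Sars, the serine enzyme and one of the most abundant synthetases, had 168, 175 and 161 CPM in untreated and 122, 130 and 125 in rapamycin libraries (−0.42 ± 0.04, adjusted p = 3e-14, edgeR). Nars, for asparagine, had 133, 137 and 126 and then 101, 101 and 101 CPM (−0.39 ± 0.04, adjusted p = 1.8e-11, edgeR). In both genes the CPM of the rapamycin libraries were separated from those of the untreated ones by more than the spread within either group. Tars, for threonine, had 75.4, 74.8 and 76.4 and then 56.5, 58.4 and 59.4 CPM (−0.38 ± 0.06, adjusted p = 5e-08, edgeR). Iars, for isoleucine, had 98.5, 91.7 and 101 and then 70.4, 79.8 and 76.1 CPM (−0.36 ± 0.05, adjusted p = 2.3e-08, edgeR). Neither gene's groups overlapped in CPM. On log2(TPM + 1) the calls of Nars, Tars and Yars ended, with changes of −0.15, −0.20 and −0.29 (adjusted p = 0.201, 0.125 and 0.133, limma). With offsets for the deposited effective lengths, which RSEM estimates from the mix of isoforms in each library, the change of Iars was −0.65, that of Nars −0.26, that of Tars −0.31 and that of Yars −0.40. The mean effective length of Iars was 3082 bases in untreated and 3634 in rapamycin libraries. Of the distinct 31-base words of Iars 14.7% were shared with other genes, mostly with Gm4849, which had a mean of at most 0.0289 CPM in either group.

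Dars, the aspartate enzyme, had 89.7, 86.4 and 86.0 CPM in untreated and 74.4, 66.4 and 69.1 in rapamycin libraries (−0.32 ± 0.05, adjusted p = 6.2e-07, edgeR). Vars, for valine had 233, 223 and 241 and then 185, 192 and 190 CPM. Its change of −0.30 ± 0.03 was small beside that of Aars but many times its error (adjusted p = 6.6e-12, edgeR). All rapamycin libraries were below all untreated ones in Dars and in Vars.

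Smaller falls were measured in Gars (glycine, −0.28), Hars (histidine, −0.27), Farsb (the beta subunit of the phenylalanine enzyme, −0.25), Wars (tryptophan, −0.22), Kars (lysine, −0.18), Eprs (a fused enzyme for glutamate and proline, −0.16) and Qars (glutamine, −0.15). Their adjusted p ran from 1.5e-05 for Gars to 0.00376 for Qars (edgeR). Qars, the most abundant of all 36 per length at 148 ± 20.9 TPM in untreated libraries, was the 1 cytosolic gene whose call ended with the length correction, where its value was 0.00. Eprs moved the other way under that correction, to −0.34. On log2(TPM + 1) the calls of Hars, Farsb, Wars, Kars, Eprs and Qars ended (adjusted p from 0.15 to 0.506, limma). With effective-length offsets those of Farsb, Kars and Qars ended (adjusted p = 0.0587, 0.0855 and 0.109, edgeR). The call of Qars was also lost without rapamycin library 1 or untreated library 3 (adjusted p = 0.064 and 0.056, edgeR). Gars and Kars each also give rise to the mitochondrial form of their enzyme.

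The 3 cytosolic genes not called were Rars, Lars and Farsa. Rars, for arginine, had 57.6, 55.5 and 58.1 CPM in untreated and 49.0, 53.4 and 53.1 in rapamycin libraries (−0.14 ± 0.06, adjusted p = 0.0577, edgeR), groups that did not overlap. Lars, for leucine, which is also known as a leucine sensor upstream of mTORC1, had 92.5, 91.1 and 91.7 and then 92.0, 83.9 and 85.8 CPM (−0.07 ± 0.05, adjusted p = 0.219, edgeR). Farsa, the alpha subunit of the phenylalanine enzyme, had a mean of 65.4 and then 63.1 CPM (−0.05 ± 0.06, adjusted p = 0.486, edgeR). The groups of Lars and Farsa overlapped. In the other 18 cytosolic genes every rapamycin library was below every untreated library, an arrangement held by 26.8% of all genes tested. The alpha and beta subunits of the phenylalanine enzyme, which form 1 complex, thus lay on different sides of the threshold, and the difference between them was not tested.

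Grouped by structure, the 8 cytosolic enzymes that bind each other in the multi-synthetase complex (Dars, Eprs, Iars, Kars, Lars, Mars1, Qars and Rars) had 6 members lower and a median of −0.17. The 12 enzymes outside it had 11 lower and a median of −0.34. By catalytic fold, 7 of 9 class I and 9 of 10 class II enzymes were lower, both with a median of −0.30, Eprs holding a domain of each class. Of the 13 cytosolic genes listed from general knowledge as reported ATF4 targets 12 fell, with a median of −0.38. Of the other 7 cytosolic genes 5 fell, with a median of −0.18. Beside these counts, 23.3% of all genes tested were lower, and the median of all genes tested was −0.01. These subsets share members, and no difference between them was tested. The list of ATF4 targets was written with earlier results of these data known, so that split is a description only.

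Lars2 encodes the mitochondrial leucyl-tRNA synthetase (ENSMUSG00000035202, chromosome 9, 123366927 to 123462666, plus strand). It had 208, 200 and 197 CPM in untreated libraries and 60.9, 66.1 and 64.4 in rapamycin libraries. The groups were further apart, by fold, than in any other of the 36 genes, and Lars2 stood at 66 in the ranking of all tested genes from the lowest fold change. The log2 fold change was −1.66 ± 0.04 (adjusted p = 1e-39, edgeR), and −1.76 with the length correction. Per length it was the most abundant mitochondrial synthetase in untreated cells, at 75.7 ± 2.82 TPM, and went to 26.5 ± 0.960 TPM. Its estimated counts were whole in all 6 libraries and rested on 556 to 2405 counts. Of its distinct 31-base words 0.923% were shared with another gene, and 0 with the transcripts of Gm42418, Gm26917 or AY036118, loci that hold ribosomal RNA-like sequence. No values were found for those loci, so their levels could not be compared. Whole counts and unshared words therefore cannot show whether ribosomal RNA fragments add to the counts of Lars2, which was not tested.

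The other mitochondrial falls were smaller and had larger errors, at lower counts. Rars2, for arginine, had 18.1, 14.9 and 15.05 CPM in untreated and 12.6, 12.9 and 11.6 in rapamycin libraries (−0.38 ± 0.12, adjusted p = 0.00893, edgeR). Fars2, for phenylalanine, had 12.8, 11.7 and 12.9 and then 10.3, 8.69 and 10.1 CPM (−0.37 ± 0.14, adjusted p = 0.0243, edgeR). The groups of both genes did not overlap, but the gaps were narrow. The gap was smaller than the range of the untreated libraries in Rars2 and of the rapamycin libraries in Fars2. Yars2, for tyrosine, had 18.7, 17.6 and 17.9 and then 12.3, 14.3 and 15.6 CPM (−0.36 ± 0.12, adjusted p = 0.00852, edgeR). Sars2, for serine, had 16.6, 16.5 and 18 and then 15.5, 11.8 and 14.02 CPM (−0.30 ± 0.12, adjusted p = 0.0332, edgeR). In Sars2 the gap between the groups was narrow, and in Yars2 it was smaller than the range of the rapamycin libraries. The call of Yars2 was lost without rapamycin library 1 (adjusted p = 0.078, edgeR). Those of Rars2, Fars2 and Sars2 were also each lost in at least 1 fit that left out a library. Aars2, for alanine, changed by −0.23 (adjusted p = 0.0463, edgeR), a call lost in each of the 6 fits that left out 1 library (adjusted p from 0.0581 to 0.0998, edgeR). Cars2, for cysteine, changed by −0.19 (adjusted p = 0.0246, edgeR), and the groups of Cars2 overlapped. With the length correction the calls of Rars2, Fars2, Yars2, Sars2 and Cars2 ended, with values between −0.26 and −0.10.

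Mars2, the mitochondrial methionyl-tRNA synthetase gene (ENSMUSG00000046994, chromosome 1, 55237177 to 55248470, plus strand), was the 1 synthetase that rose. It had 43.6, 45.4 and 41.0 CPM in untreated and 51.3, 52.3 and 47.4 in rapamycin libraries, without overlap. The change was 0.22 ± 0.07 (adjusted p = 0.00627, edgeR). The direction turned with the length correction, to −0.20 (adjusted p = 0.0172, edgeR). Mars2 has the longest transcript of the 36, with a mean of 11294 bases in the deposited tables. With effective-length offsets the change stayed at 0.19 and was not called (adjusted p = 0.0933, edgeR). On log2(TPM + 1) it was 0.26, also not called (adjusted p = 0.114, limma). The direction of Mars2 therefore depends on how length is corrected for.

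The mitochondrial genes not called were Pars2, Iars2, Vars2, Ears2, Hars2, Nars2, Tars2 and Wars2. Pars2, for proline, had the fewest counts of the 36, down to 73 in a library, and a value of −0.33 ± 0.15 (adjusted p = 0.0607, edgeR). Tars2, for threonine, had 92.7, 88.8 and 94.8 CPM in untreated and 99.1, 102 and 96.6 in rapamycin libraries (0.11 ± 0.05, adjusted p = 0.0514, edgeR). All its rapamycin libraries were above the untreated ones, and with the length correction it was called higher, at 0.15 (adjusted p = 0.0099, edgeR). Iars2, for isoleucine, was at −0.04 and became −0.20 with that correction (adjusted p = 0.00208, edgeR). Iars2 shares 2034 exonic bases on the opposite strand with Rab3gap2, and its counts were whole in 0 of 6 libraries. The same was true of the counts of Cars2, which shares 422 such bases with Naxd, while Hars and Hars2 overlap by 195. The strand setting of the counting is not given in the sources used here. The remaining values were −0.04 for Vars2 and Ears2, 0.02 for Hars2, 0.04 for Nars2 and 0.17 for Wars2. In CPM the groups overlapped in all 5. On log2(TPM + 1) Nars2 was called higher, at 0.48 (adjusted p = 0.0435, limma). Its mean effective length was 2463 bases in untreated and 1868 in rapamycin libraries. With effective-length offsets its change was 0.42 and not called (adjusted p = 0.0726, edgeR). With the length correction 4 mitochondrial genes were lower (Lars2, Aars2, Iars2 and Mars2) and 1 higher (Tars2), and 16 cytosolic genes were lower. Of all genes tested, 18.2% were lower and 20.2% higher with that correction.

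Setting the enzymes for each amino acid side by side gave 16 pairs, with Eprs in both the glutamate and the proline pair. The cytosolic gene had the lower log2 fold change in 12 of the 16, or 13 with the length correction. The widest of these gaps was for methionine, with Mars1 0.79 below Mars2 on the log2 scale, followed by cysteine at −0.67 and alanine at −0.64. Leucine stood the other way round, with Lars 1.59 above Lars2. The other pairs in which the mitochondrial gene was lower were phenylalanine (0.32 between Farsa and Fars2), arginine (0.24) and proline (0.17). No pair difference was tested.

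**Figure D3:**
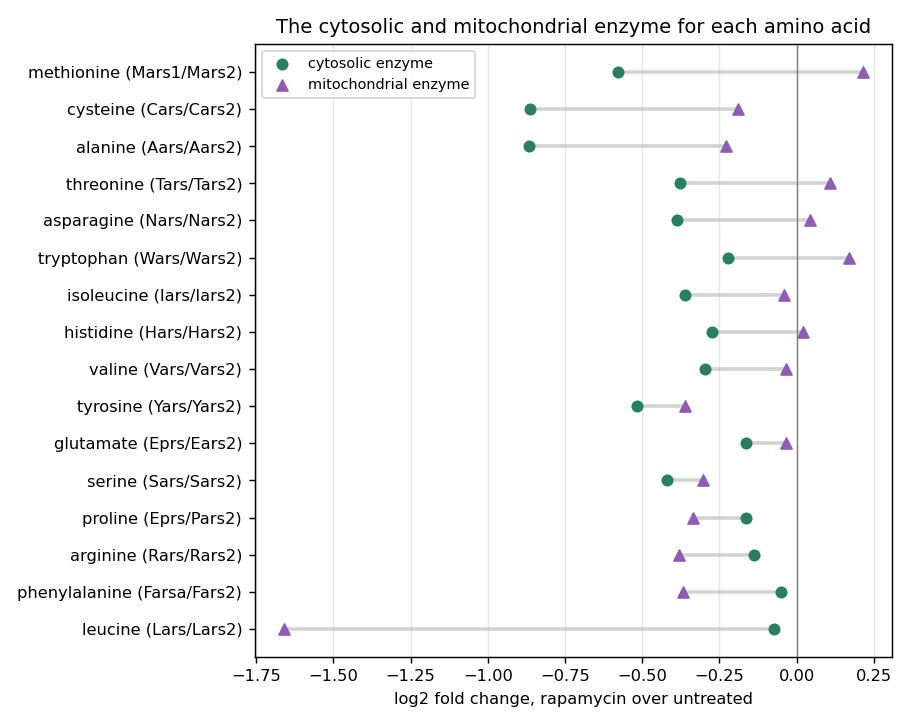
Log2 fold change of the cytosolic (green circle) and mitochondrial (purple triangle) enzyme for each of 16 amino acids, joined by a line and ordered by their difference. In 12 pairs the circle lies left of the triangle, and the leucine pair spans from −1.66 for Lars2 to −0.07 for Lars.

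Per length, the cytosolic enzymes ran in untreated cells from 26.8 TPM (Aars) through 30.2 (Wars) and 34.9 (Yars) to 121 (Vars), 125 (Sars) and 148 (Qars). Vars and Sars differed by less than the SD of Vars, 6.05, and Qars had an SD of 20.9. Mitochondrial enzymes ran from 4.60 ± 0.601 (Wars2), 5.16 ± 0.271 (Mars2) and 7.003 ± 1.08 (Nars2) to 44.7 ± 5.90 (Hars2), 65.7 ± 3.20 (Tars2) and 75.7 ± 2.82 (Lars2). The mean of Mars2 lay within 1 SD of that of Wars2. In untreated cells the cytosolic gene was the more abundant in 12 of 16 pairs, by a mean TPM ratio of 1.96 (tyrosine) or more. The ratios for histidine (1.01 ± 0.170) and cysteine (1.03 ± 0.152) were within their spread of equal levels, and in the threonine and leucine pairs the mitochondrial gene was the more abundant. For threonine the cytosolic to mitochondrial ratio of TPM was 0.625 ± 0.0385 and went to 0.468 ± 0.0359 with rapamycin. The leucine ratio went from 0.591 ± 0.0153 to 1.94 ± 0.325, so that Lars exceeded Lars2 only in the rapamycin libraries. Lars itself had 44.7 ± 0.638 TPM in untreated and 51.3 ± 7.07 TPM in rapamycin libraries, while its mean effective length went from 2704 to 2399 bases.

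Added up, the 20 cytosolic genes held 1169, 1188 and 1196 TPM in untreated and 1039, 1044 and 1039 TPM in rapamycin libraries. The 16 mitochondrial genes held 410, 395 and 392 and then 364, 367 and 360 TPM. Both sums were lower in every rapamycin library. Without Lars2 the mitochondrial sum was 332, 318 and 319 TPM in untreated and 339, 340 and 333 TPM in rapamycin libraries. That sum was thus slightly higher in every rapamycin library, on a scale on which the median gene tested shifted by 0.09 (log2 of TPM + 1). Lars2 made up 18.5% to 19.4% of the mitochondrial sum in untreated and 6.98% to 7.57% in rapamycin libraries. The ratio of the cytosolic to the mitochondrial sum was 2.85 to 3.05 and then 2.85 to 2.89, which overlap. Without Lars2 it was 3.52 to 3.75 and then 3.07 to 3.12, which do not.

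**Figure D4:**
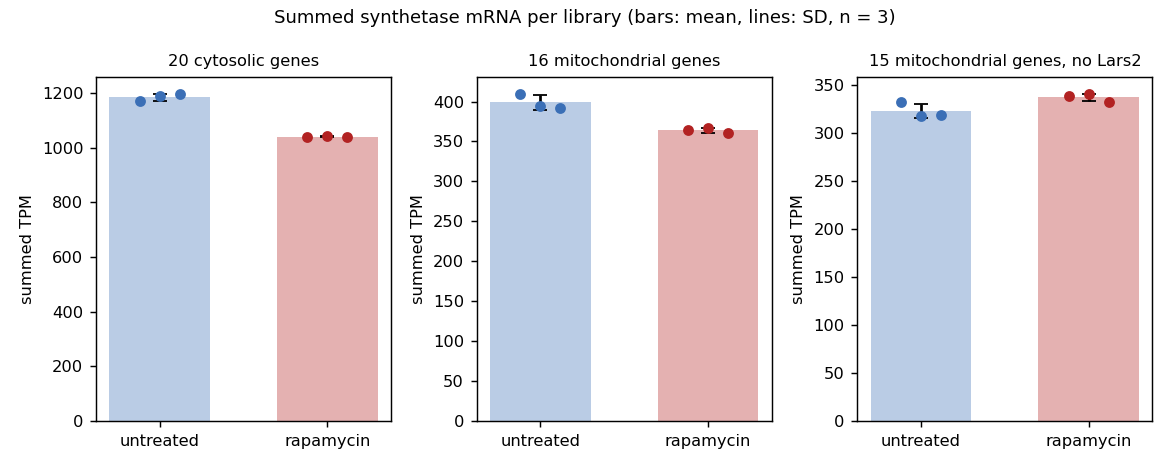
Summed TPM of the cytosolic enzymes, the mitochondrial enzymes and the mitochondrial enzymes without Lars2, with bars for the mean of each group, lines for the SD and 1 point for each of 3 libraries. The cytosolic sum goes from a mean of 1184 to 1041 TPM and the mitochondrial sum from 399 to 364, while the sum without Lars2 goes from 323 to 337.

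The proteins that act with the synthetases were described by the same counts, beside 23.3% of all genes tested lower and 24.1% higher. Of the 3 non-enzyme scaffolds of the multi-synthetase complex 1 fell, Aimp2 (−0.36, adjusted p = 0.00249, edgeR), which was no longer called with the length correction (−0.15). Of 4 genes for editing of mischarged tRNAs, Aarsd1 (−0.30) and Prorsd1 (−0.41) fell, and 0 were called with the length correction. Of 5 further mitochondrial charging genes Gatb fell (−0.51, adjusted p = 0.0223, edgeR), a subunit of the amidotransferase that makes glutaminyl-tRNA in mitochondria. The groups of Gatb overlapped in CPM, and its call ended with effective-length offsets (adjusted p = 0.0661, edgeR). The selenocysteine charging genes Sepsecs (0.07) and Pstk (−0.11) were not called, and both turned sign with the length correction (−0.09 and 0.08).

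Genes for tRNA maturation and export numbered 34 tested of 35, of which 13 were lower and 1 higher, with a median of −0.23 (8 lower and 1 higher with the length correction). The RNase P subunits Rpp21 and Pop7 fell by 0.72 and 0.67 on the log2 scale, or by 0.37 and 0.41 with the length correction. Trnt1, which adds the CCA end to tRNAs, and Rtcb, the tRNA ligase, fell by 0.31 and 0.15. Of 22 genes of RNA polymerase III, which transcribes tRNA genes, its factors and its repressor Maf1, 3 were lower and 7 higher, with a median of 0.03 (2 and 5 with the length correction). Bdp1 (0.49, or 0.18 with the length correction), Brf1 (0.31) and Gtf3c2 (0.23) rose, and Polr3c (−0.41) fell. The RNAs these genes act on, tRNAs, are not measured in poly(A) RNA. Beside these list counts, 23.3% of all genes tested were lower and 24.1% higher (18.2% and 20.2% with the length correction). No list was tested as a set.

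Of 30 genes of the ATF4 axis 24 could be tested. Among them 13 were lower and 4 higher, with a median of −0.17 (12, 2 and −0.11 with the length correction). Over all genes tested, 23.3% were lower and 24.1% higher (18.2% and 20.2% with the length correction). Atf4 itself had 227, 235 and 232 CPM in untreated and 206, 204 and 201 in rapamycin libraries (−0.18 ± 0.03, adjusted p = 7.3e-07, edgeR). The groups did not overlap, and with the length correction the change was −0.11. Among the amino acid synthesis and folate genes, larger changes were measured in Phgdh (serine) at −0.96, Mthfd2 (mitochondrial folate) at −0.93 and Aldh18a1 (proline) at −0.62. Smaller ones were those of Psph (serine, −0.31) and Shmt2 (glycine and serine exchange, −0.17), whose calls ended with the length correction. Ddit4, an inhibitor of mTORC1, changed by −0.84. The 4 genes called higher were the glutamine transporter gene Slc1a5 (0.21), Cebpg (0.18), Ppp1r15a (0.16) and Ppp1r15b (0.10, or −0.11 with the length correction). ATF4 protein was not measured. All 12 interferon genes fell, with a median of −0.62, among them Psmb9 (−0.79), Igtp (−0.63) and Irf1 (−0.53), and Wars, the synthetase that interferon induces in many cells, changed by −0.22 ± 0.06 (adjusted p = 0.00277, edgeR).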

How the data were processed

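Poly(A) RNA was sequenced in 6 libraries, 3 for each group. The kits were RNAiso PLUS for extraction, a NucleoSpin clean-up and NEBNext Ultra II Directional for the libraries, per the labels' protocols. STAR and RSEM were used with mm10, per the submitters' processing notes. The deposited tables hold RSEM expected counts, which divide reads shared between genes and need not be whole. The authors' TPM and FPKM columns correct for depth and effective length, and the deposited length columns are in bases. Genes with a value not whole within 0.005 held 25.9% to 29.7% of the counts of a library. A floor of 3 counts was 0.263 to 0.343 CPM before scaling by TMM.

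Expected counts were rounded, filtered with filterByExpr, scaled by TMM and compared with edgeR's quasi-likelihood test (robust, group as the only term), with Benjamini-Hochberg adjustment over 11950 genes and a threshold of 0.05. The SE was the log2 fold change over the square root of F. FPKM was not used. Symbols and positions came from GENCODE vM21, which named 55227 of the 55487 genes. The length correction used as offsets a spline (5 degrees of freedom) on the log2 of gene length, fitted in each library to genes whose log2 CPM averaged at least 2. Effective-length offsets and other alternatives (factors, filters, limma on log2(TPM + 0.1) and log2(TPM + 1), limma-voom, DESeq2, a replicate block, each library left out) have their effect in the closing section. Sharing between transcripts was counted over 31-base words. Procedures were tested on simulated data. The versions were edgeR 4.0.16, DESeq2 1.42.0 and limma 3.58.1 in R 4.3.3, and Python 3.11.15.

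The members, the related lists, the marker lists and the rules were chosen with earlier results of these data known. Values of every library were given for members past the threshold with a change of at least 0.3 on the log2 scale and for members called higher, and others of note were chosen after their values were seen. From each related list up to 4 genes past the threshold were named by smallest adjusted p, or up to 2 by level where none passed. Other genes of a list were chosen after their values were seen. A few genes and 1 sequence are not reported here.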

Additional observations from a re-analysis of the deposited data

How the results depend on the processing

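Of 25 members called, 9 were called in the same direction under all 19 alternatives of the fit (Aars, Cars, Dars, Gars, Iars, Mars1, Sars, Vars and Lars2). Over 684 values of single members, 565 kept their direction and their side of the threshold, 75 lost a call, 19 gained one and 25 turned sign. The cause was not tested, except that leaving out a library leaves fewer samples.

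The mitochondrial enzymes called lower numbered 7, but 3 with DESeq2 and with effective-length offsets, 4 with the length correction and with length and GC correction, 2 with limma on log2(TPM + 1) and on log2(TPM + 0.1), and 3 to 7 with each library left out. Those called higher numbered 2 with RLE factors and both TPM scales, 0 with effective-length offsets and 1 to 2 with each library left out (2 without rapamycin library 3 or untreated library 3). Both TPM scales called 8 cytosolic enzymes lower, and effective-length offsets called 14. The 2 mitochondrial enzymes called higher on both TPM scales were Nars2 and Tars2. Over all genes, 1801 were lower with effective-length offsets, 1158 and 1144 with log2(TPM + 1) and log2(TPM + 0.1). The cytosolic median was −0.31 with length and GC correction, −0.17 and −0.18 on log2(TPM + 1) and log2(TPM + 0.1), −0.33 without composition factors and with upper-quartile factors, −0.31 without Gars and Kars, and −0.32 to −0.27 with each library left out. The mitochondrial median was −0.19 with effective-length offsets, −0.20 with the length correction, −0.21 with length and GC correction and −0.042 without Lars2. The difference of medians was −0.10 with effective-length offsets, the length correction and both TPM scales, −0.11 with length and GC correction and −0.25 without Lars2. Composition factors moved the median of all genes tested to −0.05 at most, and the TPM scales to 0.09 and 0.10.

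Signs turned for Mars2 with the length correction (−0.20) and with length and GC (−0.23), for Qars (0.00089 and 0.0086) and for Farsa (0.015 and 0.0295). On log2(TPM + 1) and log2(TPM + 0.1), Farsa was at 0.0376 and 0.0383, Lars at 0.19 and 0.19, Iars2 at 0.11 and 0.11, and Vars2 at 0.17 and 0.18. With effective-length offsets Lars was at 0.084 and Vars2 at 0.065. Hars2 was at −0.0200 without composition factors and −0.0220 with upper-quartile factors, and Nars2 at −0.0001585 with the latter. With each library left out, Ears2 ran from −0.0761 to 0.0182, Hars2 from −0.0254 to 0.0653, Nars2 from −0.0303 to 0.17 and Vars2 from −0.0861 to 0.0056. The signs turned without rapamycin library 2 (Ears2, Hars2 and Vars2), untreated library 3 (Hars2), and untreated libraries 1 and 2 (Nars2).

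Same-numbered libraries of the groups showed no strong shared deviation (correlations of −0.06, −0.03 and −0.06). The labels do not say what the numbers stand for, so whether they pair libraries is not known. With the replicate number as a block, 17 cytosolic and 6 mitochondrial enzymes were lower, and Aars2 was no longer called (−0.23, adjusted p = 0.0563, edgeR). Its call was also lost with DESeq2 (adjusted p = 0.139), RLE factors, no filter (adjusted p = 0.0566, edgeR), both TPM scales and each library left out. Counts as low as 73 to 137 a library (Pars2) limit what can be shown for them.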
